A study of Mus musculus with 141 samples.

Results

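The genes described are the 10 BCL2 family members *Bcl2*, *Bcl2l1*, *Mcl1*, *Bax*, *Bak1*, *Bcl2l11*, *Bid*, *Bad*, *Bbc3* and *Pmaip1*, chosen by symbol and matched to Ensembl identifiers, out of 46041 nuclear-encoded genes in the counts. They were read in single cells of mouse bone marrow, 94 from the gate of basophil/mast cell progenitors (BMCP) and 47 granulocyte/monocyte progenitors (GMP), taken from 3 female C57BL/6 mice whose ages are not given. Both populations were live, Lin-, cKit+, Sca1- and CD16/32hi; BMCP were in addition integrin beta7hi, and GMP were CD34+ cells outside the BMCP gate. Cells were sorted into plates and made into full-length Smart-seq2 cDNA libraries with ERCC spike-in RNA. No cell is tied to a mouse in the labels, so each population counts as 1 sample, its cells are not replicates of it, and values are described without tests.

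BCL2 family proteins meet at the mitochondrial outer membrane. The effectors BAX and BAK1 open that membrane and release cytochrome c, which starts caspase activation; BCL2, BCL-XL and MCL1 hold the effectors in check, and the BH3-only proteins block these guardians or activate the effectors directly. Blood progenitors live on cytokine signals that keep the guardians high and the BH3-only proteins low, and in mast cells deprived of cytokine the BH3-only proteins BIM and PUMA are known death inducers.

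Promoters are shown because they belong to the gene whose detection differed most between the populations (*Bcl2*) and to the only members with a match to an E-box (*Bax*) or a FOXO motif (*Bcl2l11*). Sequences are RefSeq windows on GRCm38.p6 from 250 bases before to 50 bases after the annotated start nearest the gene's 5′ end, written 5′ to 3′ on the gene's strand; such windows were found for 9 of the 10 members. Capitals mark matches on either strand to an E-box, a FOXO motif or a GATA motif, which did not overlap one another. The E-box searched was CACGTG. The letters taken for FOXO factors were GTAAACA, and those for GATA factors were AGATAA. The windows lie at chr1:106714241-106714540 on the minus strand for *Bcl2*, chr7:45466849-45467148 on the minus strand for *Bax* and chr2:128125788-128126087 on the plus strand for *Bcl2l11*.
Bcl2: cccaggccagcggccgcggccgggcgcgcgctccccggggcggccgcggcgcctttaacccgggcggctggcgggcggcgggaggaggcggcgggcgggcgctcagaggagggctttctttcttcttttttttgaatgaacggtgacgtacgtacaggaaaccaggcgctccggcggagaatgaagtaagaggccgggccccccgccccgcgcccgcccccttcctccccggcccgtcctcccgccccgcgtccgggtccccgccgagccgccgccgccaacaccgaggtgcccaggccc
Bax: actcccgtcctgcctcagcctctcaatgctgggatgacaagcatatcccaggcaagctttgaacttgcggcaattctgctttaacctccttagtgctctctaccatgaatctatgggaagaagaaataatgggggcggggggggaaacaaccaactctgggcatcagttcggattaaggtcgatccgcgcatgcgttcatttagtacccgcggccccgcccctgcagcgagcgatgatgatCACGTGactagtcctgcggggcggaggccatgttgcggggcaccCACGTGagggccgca
Bcl2l11: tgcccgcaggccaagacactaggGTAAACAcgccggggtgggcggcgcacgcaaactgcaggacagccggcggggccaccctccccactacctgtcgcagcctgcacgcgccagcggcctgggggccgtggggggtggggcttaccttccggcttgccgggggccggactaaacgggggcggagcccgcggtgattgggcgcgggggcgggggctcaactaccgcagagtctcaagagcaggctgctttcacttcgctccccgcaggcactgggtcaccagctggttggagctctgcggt
The *Bax* window held 2 E-boxes, at -9 and 36 from the start, and the *Bcl2l11* window held 1 FOXO match at -227. Across all 32817 promoter windows of 300 bases in the table, an E-box occurred in 7.15%, the FOXO motif in 3.65% and the GATA motif in 11.2%. None of the 9 windows held the GATA motif. The GC box GGGCGG, found in 35.6% of all windows and not capitalised, occurred 7 times in the *Bcl2* window, where G and C made up 76% of the bases. These matches describe letters only.

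After filtering, 89 BMCP with 96129 to 2416630 counts each and 41 GMP with 130191 to 3688848 were kept, summing to 84242320 and 55520835 counts. The median cell had 5440 detected genes in BMCP and 7001 in GMP, and spike-ins took a median of 11.3% and 5.92% of reads. Of the 9 BMCP markers all had higher summed levels in BMCP, but they parted the cells unequally: *Gzmb* was in 86 of 86 thinned BMCP and 1 of 40 GMP, *Cpa3* in 86 and 28, *Kit* in 86 and 38, and *Mcpt8* in 34 and 24. Among GMP markers *Mpo* stood at 14.6 counts per 1e6 counts (CPM) in summed BMCP, with 31492 CPM in GMP. The 7 GMP markers summed to a median of 8.19 CPM per BMCP (range 1.05 to 2922) and 46524 CPM per GMP (543 to 101682), whereas the 3 stromal markers were at a median of 0 in both. *Gata2*, a mast cell and basophil lineage factor, had 10 or more thinned reads in 19 of 40 GMP, and member ratios that lose 2-fold, turn or move by over 1.5 times without these cells are given both ways. Where cells are split by a marker, those with fewer than 10 thinned reads count as without it, though some may hold reads. The 5 erythroid markers summed to a median of 179 CPM in BMCP, with *Car1* at 228 and *Hba-a1* at 0.059 CPM in summed BMCP, and to a median of 0 in GMP; their part in the results was not tested. BMCP numbers 1 to 47 and 48 to 94 form separate blocks of the count table; unaligned reads took 37.5% and 25.1% of them. All GMP lie in 1 further block. Population and block therefore cannot be told apart, though each BMCP block can be set against GMP.

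Of the 10 genes, 2 lay 2-fold or more higher in BMCP (*Bcl2l1* and *Bcl2l11*) and 3 lay 2-fold or more lower (*Bcl2*, *Bak1* and *Pmaip1*), and 5 lay between. Across the 14554 genes with at least 1 CPM in either population, 25.8% passed 2-fold upward in BMCP and 21% downward, so the family's 20% and 30% are near the background. All 10 members passed the 1 CPM filter. The ratios are on the log2 scale of summed CPM plus 1, BMCP over GMP; the family median was -0.11 and that of all genes 0.04. When totals were set by spike-in counts the median of all genes moved to -0.79 and that of the family to -0.97, and the split of all genes turned from 3752 higher and 3061 lower to 2394 and 6519. Kept BMCP held 7.48 gene counts per spike-in count and GMP 13.7.

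**Figure D1:**
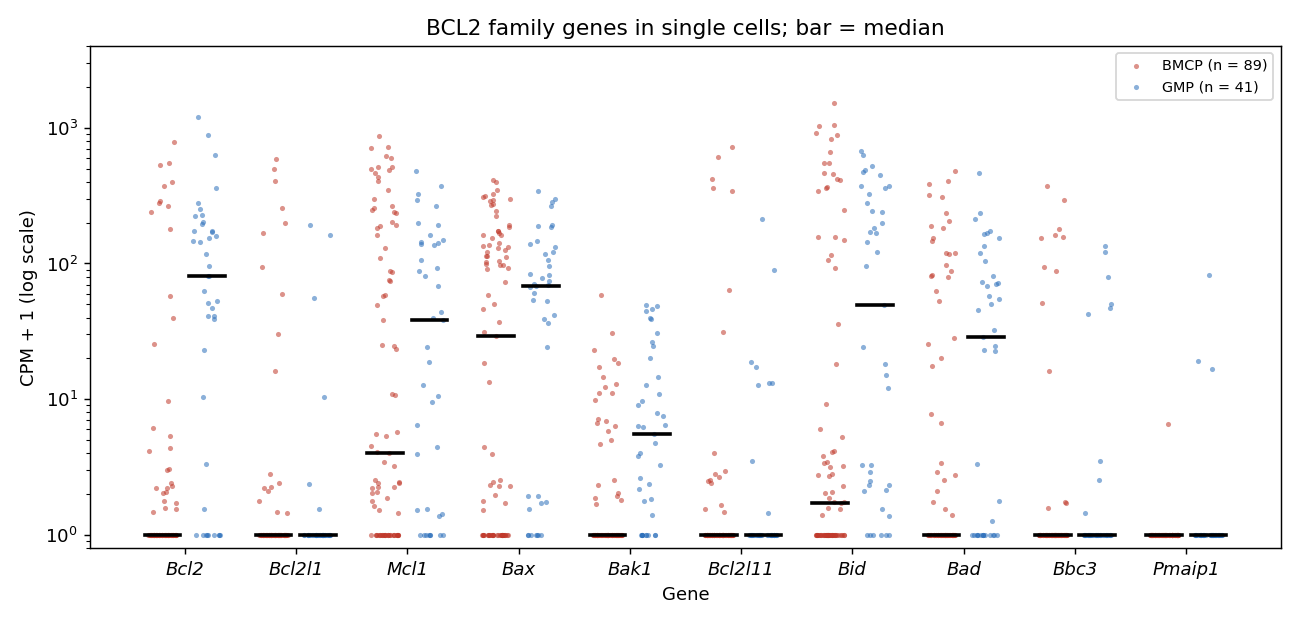
Each point is a kept cell (89 BMCP in red, 41 GMP in blue), placed by the CPM of a gene plus 1 on a log axis; black bars are medians. *Bcl2* had a median of 0 CPM in BMCP and 80.02 in GMP, and the 2 populations overlapped for every gene.

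*Bcl2*, the guardian gene (Ensembl ENSMUSG00000057329, chromosome 1, 106538178 to 106714274, minus strand, GRCm38), had the largest detection difference of the 10 genes. Per-cell values ran from 0 through a median of 0 to 789 CPM in BMCP and from 0 through 80.02 to 1201 CPM in GMP. Most BMCP were therefore at or near 0 and most GMP were not, yet the ranges overlapped, since 10 of 89 BMCP stood above 100 CPM beside 18 of 41 GMP. In the summed cells *Bcl2* was 43.8 CPM in BMCP (exact 95% Poisson limits 42.4 to 45.2), while GMP had 121 CPM (118 to 124), 2.77-fold higher in GMP and -1.45 on the log2 scale. Such limits, and the exact limits on shares used here, cover counting error only, because amplified reads without molecular identifiers are not independent molecules.

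With each cell thinned to 200000 reads and 2 reads taken as detection, *Bcl2* was found in 12 of 86 BMCP (14%, exact Clopper-Pearson 95% limits 7.42% to 23.1%) and 29 of 40 GMP (72.5%, 56.1% to 85.4%). At 10 reads the counts were 10 and 22 cells. The difference at 2 reads was -58.5 percentage points. The median over all 14554 genes was -7.27 points, and 131 of them (0.900%) had a difference as low or lower. The share of genes with a difference as low or lower was 15.2% for *Bad*, 19.3% for *Bid*, 26.9% for *Bax* and 33.5% for *Mcl1*, and larger for each other member. These genes were not matched for level. A gene found in fewer than 58.5% of GMP could not reach the *Bcl2* difference, and the median gene was found in 25% of GMP. The *Bcl2* ratio was past 2-fold in the same direction in 12 of 12 alternatives, from -2.31 with spike-in scaling to -1.06 with BMCP 1 to 47 alone. In GMP split by *Gata2*, *Bcl2* was 118 CPM in the 19 cells with the marker and 124 CPM in the 21 without. For comparison, *Mpo*, the most abundant GMP marker at 31492 CPM in GMP, reached 2 reads in 22 of 86 BMCP and 10 reads in 3. Whether those reads were stray or transcribed in BMCP was not tested, and *Bcl2* stood far lower in GMP.

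*Bcl2l1*, which encodes BCL-XL (ENSMUSG00000007659, chromosome 2, minus strand), was rare in both populations and its direction rested on which BMCP were read. Its cells ran from 0 through a median of 0 to 591 CPM in BMCP and from 0 through 0 to 190 CPM in GMP, and only 18 of 89 BMCP and 6 of 41 GMP had any read. The ranges overlapped and the few high cells set the sums. Summed BMCP had 34 CPM (32.8 to 35.3), GMP 12.2 CPM (11.3 to 13.2), a log2 ratio of 1.40. BMCP 1 to 47 alone stood at 3.18 CPM, below GMP (-1.66), and BMCP 48 to 94 at 52.6 CPM, above it (2.02). Replicate 61 gave 32.2% of the BMCP counts, and without it and the highest GMP the ratio was 1.25. Leaving out the 19 GMP with *Gata2*, a choice made after seeing the data, lowered GMP to 3.00 CPM and raised the ratio to 3.13. Detection was 10 of 86 BMCP (11.6%, 5.72% to 20.3%) and 3 of 40 GMP (7.50%, 1.57% to 20.4%), limits that overlap.

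*Mcl1*, a short-lived guardian protein's gene (ENSMUSG00000038612, chromosome 3, plus strand), was the most widely detected of the 3 in BMCP. Values ran from 0 through a median of 3.01 to 863 CPM in BMCP and from 0 through 37.7 to 481 CPM in GMP. BMCP thus held both the highest single cells and the lower median, and the ranges overlapped. BMCP summed to 122 CPM (119 to 124), GMP to 84.1 CPM (81.8 to 86.6), a ratio of 0.52 that turned to -0.34 with spike-in scaling and to -0.01 without the *Gata2* GMP. *Mcl1* was found in 36 of 86 BMCP (41.9%, 31.3% to 53%) and 23 of 40 GMP (57.5%, 40.9% to 73%); the shares run against the sums, so no order is read from them. Inside the populations, *Mcl1* was 45 CPM in GMP with *Gata2* and 123 CPM in those without, detected in 7 of 19 and 16 of 21. BMCP with *Fos* at 10 reads, an immediate early gene, had 153 CPM in 37 cells, and the other 49 had 90.7 CPM.

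Few BMCP held more than 1 guardian gene, but shares of cells with 2 genes follow in part from the share of each. *Bcl2* alone was in 14% of BMCP and 72.5% of GMP, and *Mcl1* in 41.9% and 57.5%. Whether the genes met more or less often than those shares give was not tested. None of the 3 was detected in 37 of 86 BMCP (43%, 32.4% to 54.2%) and 5 of 40 GMP (12.5%, 4.19% to 26.8%), and at 10 reads in 43 and 11 cells. *Bcl2* and *Mcl1* were both found in 6 of 86 BMCP (6.98%, 2.60% to 14.6%) and 18 of 40 GMP (45%, 29.3% to 61.5%). Neither of that pair was found in 44 of 86 BMCP (51.2%) and 6 of 40 GMP (15%). *Mcl1* without *Bcl2* was found in 30 of 86 BMCP (34.9%) and 5 of 40 GMP (12.5%). *Bcl2* without *Mcl1* was found in 6 of 86 BMCP and 11 of 40 GMP. A gene missing at this depth may still be transcribed, and BMCP had fewer detected genes per cell in general.

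**Figure D2:**
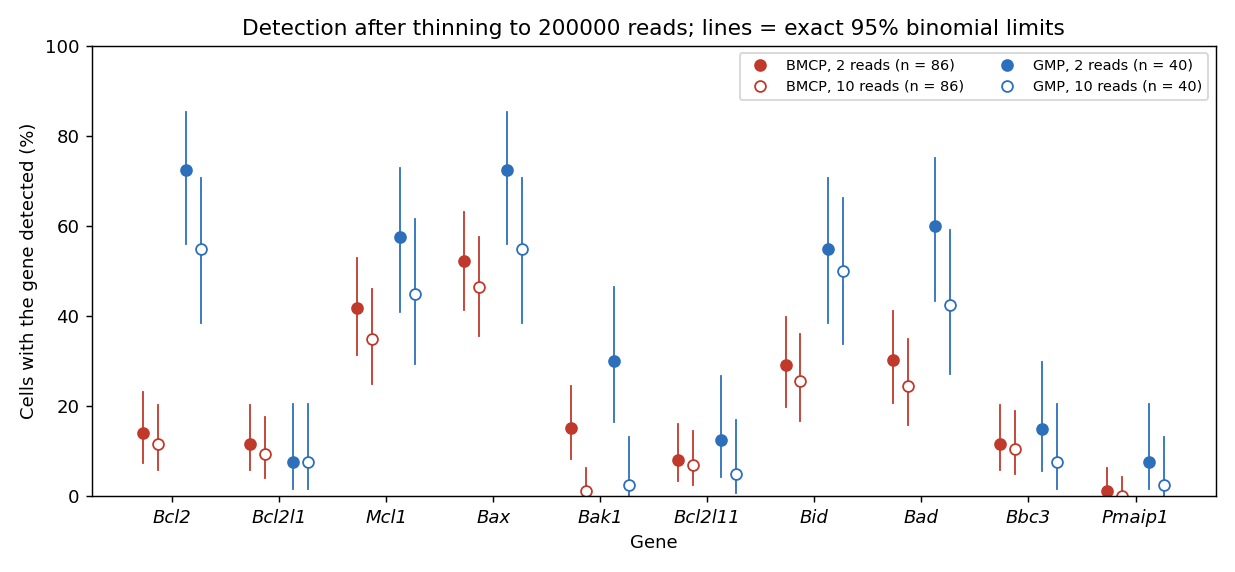
Share of cells, in percent, with each gene at 2 (filled) or 10 (open) reads after thinning to 200000 reads, in 86 BMCP (red) and 40 GMP (blue), with exact 95% binomial limits. The limits of the populations do not overlap for *Bcl2* at 2 or 10 reads or for *Bad* at 2 reads, and those of *Bcl2l1* overlap. They cover counting error only, and the share of all genes whose limits part was not computed.

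Of the effectors, *Bax* (ENSMUSG00000003873, chromosome 7, minus strand) stood far above its partner per length, at 61.5 CPM per kilobase of exon in BMCP beside 1.32 for *Bak1*. Its cells ran from 0 through a median of 28.1 to 412 CPM in BMCP and from 0 through 67.2 to 339 CPM in GMP, with full overlap of the ranges. Summed *Bax* was 96.9 CPM (94.8 to 99) in BMCP, while GMP had 82.8 CPM (80.4 to 85.2), a ratio of 0.23 that turned to -0.64 with spike-in scaling. It was found in 45 of 86 BMCP (52.3%, 41.3% to 63.2%) and 29 of 40 GMP (72.5%, 56.1% to 85.4%). *Bak1*, the other pore-forming effector (ENSMUSG00000057789, chromosome 17, minus strand), was low in both, from 0 through a median of 0 to 57.8 CPM in BMCP and from 0 through 4.59 to 48.4 CPM in GMP. No cell of either population reached 100 CPM. The *Bak1* sums were 3.17 CPM (2.80 to 3.57) and 8.72 CPM (7.96 to 9.53), a ratio of -1.22 that fell short of 2-fold with a pseudocount of 5 CPM (-0.75) and in BMCP 48 to 94 (-0.95). At least 1 effector gene was found in 50 of 86 BMCP (58.1%) and 32 of 40 GMP (80%), and both together in 8 and 9 cells.

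*Bcl2l11*, which encodes BIM (ENSMUSG00000027381, chromosome 2, 128126038 to 128162547, plus strand), was a gene of a few strongly positive cells. Values ran from 0 through a median of 0 to 717 CPM in BMCP and from 0 through 0 to 211 CPM in GMP, and 5 BMCP and 1 GMP were above 100 CPM. The populations overlapped at 0 and the 5 BMCP lay above all GMP. The sums were 25 CPM (24 to 26.1) and 9.46 CPM (8.66 to 10.3), a ratio of 1.32. GMP replicate 36 held 60.2% of the GMP counts; GMP stood at 3.87 CPM without it, and the ratio without the highest cell of each population was 2.10. Without the *Gata2* GMP it was 0.40, since the 19 *Gata2* cells had 1 read among them and the other 21 had 18.8 CPM (7.90 without replicate 36). Spike-in scaling gave 0.51. Within BMCP, *Bcl2l11* was 66.2 CPM in 20 cells with 10 or more thinned reads of the basophil protease gene *Mcpt8*. It was 13.2 CPM in the 66 with fewer, some of which held *Mcpt8*, since 34 of 86 BMCP had 2 or more reads of it. *Bcl2l11* was found in 3 and 4 cells. Without replicate 82 the first level was 43.8 CPM, and without replicate 42 the second was 6.86. Detection overall was 7 of 86 BMCP (8.14%, 3.34% to 16.1%) and 5 of 40 GMP (12.5%, 4.19% to 26.8%), which runs against the sums.

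*Bid*, whose protein is cleaved by caspase 8 and links death receptors to mitochondria (ENSMUSG00000004446, chromosome 6, minus strand), was found more widely in GMP, beside a few very high BMCP. It ran from 0 through a median of 0.728 to 1509 CPM in BMCP and from 0 through 48.3 to 678 CPM in GMP. Highs lay in BMCP and the median was higher in GMP, with overlap throughout. Its sums were 127 CPM (124 to 129) and 172 CPM (169 to 176), a ratio of -0.44. BMCP 1 to 47 had 188 CPM (0.13) and BMCP 48 to 94 had 89.3 CPM (-0.94), so the direction differed between blocks, and spike-in scaling gave -1.31. *Bid* was found in 25 of 86 BMCP (29.1%, 19.8% to 39.9%) and 22 of 40 GMP (55%, 38.5% to 70.7%). Of all genes with at least 1 CPM, not matched for level, 19.3% had a BMCP share as far or further below that of GMP.

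*Bad*, whose protein is inactivated by phosphorylation under growth factor signals (ENSMUSG00000024959, chromosome 19, plus strand), ran from 0 through a median of 0 to 477 CPM in BMCP and from 0 through 27.7 to 459 CPM in GMP. The single highest cells were close in level, whereas the second highest stood at 402 CPM in BMCP and 234 in GMP, and the medians differed. The sums were 42.8 CPM (41.4 to 44.2) and 70.5 CPM (68.3 to 72.7), a ratio of -0.71 that lay between -1.57 with spike-in scaling and -0.08 without the *Gata2* GMP. *Bad* was 96.0 CPM in GMP with *Gata2* (63.3 without replicate 47) and 45.5 CPM in those without, and 79 CPM in BMCP with *Mcpt8* and 32.5 CPM in those without. Detection was 26 of 86 BMCP (30.2%, 20.8% to 41.1%) and 24 of 40 GMP (60%, 43.3% to 75.1%). A library kit that does not mark strand cannot part reads of *Bad* and *Gpr137* over the bases they share. *Gpr137*, an opposite-strand gene (74.5 CPM in BMCP, 24.4 in GMP), covers 20.5% of the *Bad* exon bases. Reads there may have been left out as ambiguous or counted to 1 of the genes, as the strand setting is not given. Levels per kilobase use all exon bases. The same holds for *Bid* and *Bcl2l13* (17.7%), *Bak1* and *Ggnbp1* (18.2%), and *Bcl2* and *D630008O14Rik* (6.09%).

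*Bbc3* and *Pmaip1* encode PUMA and NOXA, BH3-only proteins induced by p53. *Bbc3* (ENSMUSG00000002083, chromosome 7, plus strand) ran from 0 through a median of 0 to 372 CPM in BMCP and from 0 through 0 to 133 CPM in GMP. Most cells of both were at 0. Its sums were 16.4 CPM (15.6 to 17.3) and 13.8 CPM (12.8 to 14.8), and the ratio of 0.24 turned to -0.59 with spike-in scaling and to -0.49 without the *Gata2* GMP. *Bbc3* was found in 10 of 86 BMCP and 6 of 40 GMP. *Pmaip1* (ENSMUSG00000024521, chromosome 18, plus strand) was all but absent from the reads. It had 8 reads in a single BMCP, replicate 72, and 169 reads in 3 GMP, of which replicate 28 held 72.8%. BMCP thus stood at 0.095 CPM (0.041 to 0.187). GMP stood at 3.04 CPM (2.60 to 3.54), and at 0.852 CPM when replicate 28 was left out. The ratio of -1.88 was -0.89 without the highest cell of each population, and -2.50 without the *Gata2* GMP, which raised GMP to 5.19 CPM.

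**Figure D3:**
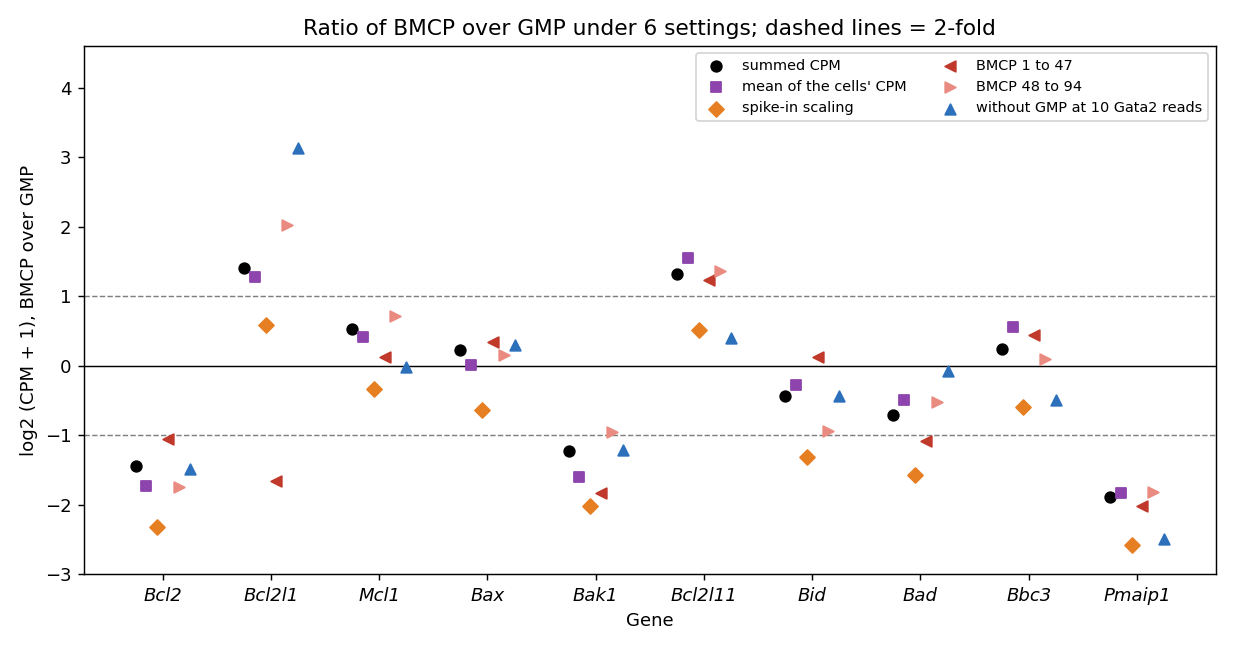
Log2 ratio of CPM plus 1, BMCP over GMP, for each gene (x axis) under 6 settings, with dashed lines at 2-fold. *Bcl2* is below -1 in all 6, *Bcl2l1* changes sign in BMCP 1 to 47, and *Mcl1*, *Bax* and *Bbc3* lie above 0 by summed CPM (0.52, 0.23 and 0.24) and below it with spike-in scaling.

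Levels can be set against each other between genes only per length, here summed CPM per kilobase of merged exons. *Bax* led in both populations, at 61.5 in BMCP and 52.5 in GMP. *Bid* followed with 35.7 and 48.5. In BMCP *Mcl1* was level with *Bid* at 35.6, and *Bad* came next at 16.7, then *Bbc3* at 7.73, *Bcl2l1* at 7.41 and *Bcl2* at 4.78. In GMP the order after *Bid* was *Bad* at 27.6, *Mcl1* at 24.6, *Bcl2* at 13.2, *Bbc3* at 6.50, *Bak1* at 3.62 and *Bcl2l1* at 2.67. *Mcl1* stood above *Bad* in GMP by the mean of the cells (25.9 and 24.9) and without the highest cell of each gene (23.04 and 21.1). *Bcl2* thus held 2.75% of the family's per-length level in BMCP and 7.30% in GMP. By role, guardians held 27.5% in BMCP and 22.3% in GMP, effectors 36.1% and 30.9%, and BH3-only genes 36.4% and 46.7%. By the mean of the cells these shares lay closer together. Guardians then held 26.9% and 24.7%, effectors 33.2% and 32.4%, and BH3-only genes 39.9% and 42.9%. Shares were not computed without the *Gata2* GMP, though several member levels in GMP changed without those cells. The family sum was 174 CPM per kilobase in BMCP and 182 in GMP.

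**Figure D4:**
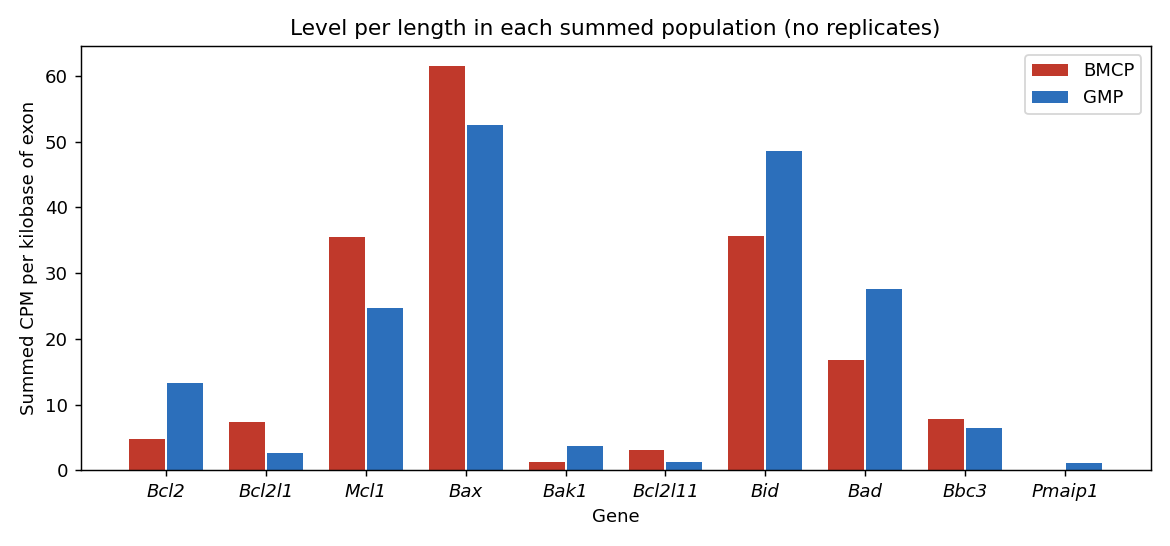
Bars give summed CPM per kilobase of merged exons for each gene in BMCP (red) and GMP (blue), 1 sample each and no error bar. *Bax* is the highest in both (61.5 and 52.5), and *Bcl2* is at 4.78 in BMCP and 13.2 in GMP.

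The median cell had 2 of the 10 genes in BMCP and 4 in GMP, and the most seen in a cell was 7 in both. None was found in 5 of 86 BMCP and 1 of 40 GMP. At least 1 BH3-only gene was found in 51 of 86 BMCP (59.3%) and 35 of 40 GMP (87.5%). Detection was also lower in BMCP over all 14554 genes, at a median of 15.1% of cells beside 25% in GMP. Correlations between members over thinned cells, which share library depth and zero counts, were weak in BMCP, from -0.13 for *Mcl1* with *Bax* to 0.17 for *Bad* with *Bax* (Spearman, 86 cells). In 40 GMP the pair *Bid* and *Bax* had 0.50, and *Bcl2* and *Mcl1* 0.28. The genes whose cell pattern was most like a member were looked up only where the member was found in at least 50% of cells, among genes as widely found. These were 4178 genes in 40 GMP and 1858 in 86 BMCP. Values named are the highest of so many and were not tested. *Bcl2* in GMP was most like *Cox14* (0.61), *Fabp5* (0.58) and *Bckdk* (0.53); over BMCP the same pairs had -0.05, 0.23 and 0.05. *Mcl1* in GMP was most like *Pak1ip1* (0.55), *Was* (0.52) and *Stat6* (0.50), and over BMCP these had -0.02, 0.30 and 0.04. *Bax* in BMCP was most like *Itm2c* (0.45), which had -0.10 in GMP.

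Genes that act with the family were read from 8 lists of 77 genes, of which 67 had at least 1 CPM. At least 2-fold higher in BMCP were 17 and at least 2-fold lower 10, and the median ratio was 0.08, beside 0.04 for all genes. The shares, 25.4% and 14.9%, compare with the background of 25.8% and 21%. With spike-in scaling the counts were 8 and 25, beside 2394 and 6519 of the 15042 genes that had 1 CPM under that scaling. No list below was tested against these shares. Without the *Gata2* GMP, a choice made after seeing the data, the counts were 19 and 8. Of the pathway genes named, only *Htra2* (-0.80) and *Mapk8* (-0.93) fell short of 2-fold without those cells.

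Downstream of the pore, 4 of 10 apoptosome and caspase genes were at least 2-fold higher in BMCP and 1 lower, beside 25.8% and 21% of all genes. *Apaf1*, the apoptosome scaffold, stood at 69.9 CPM in BMCP and 26.1 in GMP, and *Casp9*, the initiator caspase it activates, at 66.9 and 19.8. *Casp6*, an effector caspase gene, stood at 99.4 CPM in BMCP and 35.7 in GMP. *Apaf1* was found in 21 of 86 BMCP and 16 of 40 GMP, which runs against its sums. *Casp9* was found in 18 and 5 cells and *Casp6* in 35 and 9, which runs with theirs. The log2 ratios of these 3 genes lay between 1.39 and 1.71, and between 0.54 and 0.87 with spike-in scaling, which left none of the 10 past 2-fold higher and 3 past 2-fold lower. Among 8 inhibitor of apoptosis genes and antagonists, 2 were higher and 2 lower, and with spike-in scaling 1 (*Birc2*) and 2. *Xiap*, a caspase inhibitor, had 127 CPM in BMCP and 53.8 in GMP, and *Birc2*, a ubiquitin ligase, 166 and 41.5. *Birc5*, which also serves in cell division, had 12.1 CPM in BMCP (6.19 without replicate 29) and 72.6 in GMP, and the mitochondrial protease gene *Htra2* 61.1 and 130.2.

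Of 7 passing transcription factors of BH3-only genes, 4 were higher in BMCP and 1 lower, and with spike-in scaling 2 and 1. Over all genes 25.8% were higher and 21% lower by summed CPM. *Foxo3*, a cytokine-restrained factor known to raise *Bcl2l11*, had 174 CPM in BMCP and 82.3 in GMP, 52.9 without replicate 24, and its ratio of 1.07 was 0.21 with spike-in scaling. *Foxo1* had 36.2 CPM in BMCP and 4.09 in GMP, 2.32 without replicate 26. *Ddit3*, a stress factor, had 84.6 and 28.2 CPM, a ratio of 1.55 that was 0.70 with spike-in scaling. The cell cycle factor *E2f1* went the other way, with 8.95 CPM in BMCP (5.55 without replicate 24) and 53.9 in GMP. In the p53 circuit 4 of 8 were higher and 1 lower, and with spike-in scaling 2 and 1. Those higher included *Zmat3*, *Phlda3* and *Sesn2*, all below 20 CPM and named after their values were seen. They were found in 7, 3 and 3 of 86 BMCP and in 0, 2 and 2 of 40 GMP. In BMCP 1 to 47 the ratio of *Zmat3* was 0.39 and that of *Sesn2* -2.37, so this count rests in part on few cells. *Trp53inp1* had 78.5 CPM in BMCP and 12.6 in GMP (7.90 without replicate 20), and the cell cycle inhibitor gene *Cdkn1a* 10.8 (5.47 without replicate 18) and 42. For *Cdkn1a* the ratio in BMCP 1 to 47 was -0.53, short of 2-fold.

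Of 8 passing death receptor and adaptor genes, none was higher and 3 were lower in BMCP, and with spike-in scaling 4 were lower. The shares over all genes by summed CPM were 25.8% higher and 21% lower. *Tnfrsf1a*, the TNF receptor gene, had 92.3 CPM in GMP, where 27 of 40 cells had it, and 1.90 CPM in BMCP, where 1 of 86 did. Without that cell, replicate 12, which also had the lowest *Gzmb* of the BMCP, *Tnfrsf1a* in BMCP was 0.036 CPM. The adaptor gene *Fadd* had 9.08 CPM in BMCP and 21.1 in GMP, with -0.51 in BMCP 1 to 47. Among 12 genes for turnover and phosphorylation, *Pim2*, a kinase that acts on BAD, had 36.1 CPM in BMCP and 7.92 in GMP (3.69 without replicate 7). *Btrc*, part of a ubiquitin ligase, had 21.7 and 68.3 CPM, and the kinase gene *Mapk8* 36.8 (20.8 without replicate 3) and 79.5, its ratio -0.78 in BMCP 1 to 47. None of 6 mitochondrial partner genes was past 2-fold by summed CPM, while 5 of the 6 were past 2-fold lower with spike-in scaling. That scaling also put 6519 of all 15042 passing genes past 2-fold lower.

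Of 15 further BCL2 family genes, 8 had at least 1 CPM, and 2 of these (25%) were higher in BMCP, beside 25.8% of all genes. *Bcl2l14* had 21.9 CPM in BMCP, or 13.3 when replicate 69 was left out. GMP had 0.919 CPM of it, or 0.584 when replicate 16 was left out. *Bcl2l14* was found in 3 of 86 BMCP and 2 of 40 GMP, so its sums rest on few cells. *Bmf*, a BH3-only gene named after its values were seen, had 4.87 CPM in BMCP (2.99 without replicate 41), found in 2 of 86 cells, and no read in GMP. Against a floor of 3 counts over the GMP, 0.0540 CPM, its summed reads were at least 90.1-fold higher in BMCP, or at least 55.4-fold without replicate 41. With detection in 2 cells only, this covers counting error and sets no lower limit on a difference between the populations. The guardian genes *Bcl2a1a*, *Bcl2a1b* and *Bcl2a1d*, near-identical copies whose reads cannot be placed with certainty, had 0 reads in BMCP and 6, 2 and 0 in GMP.

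**Figure D5:**
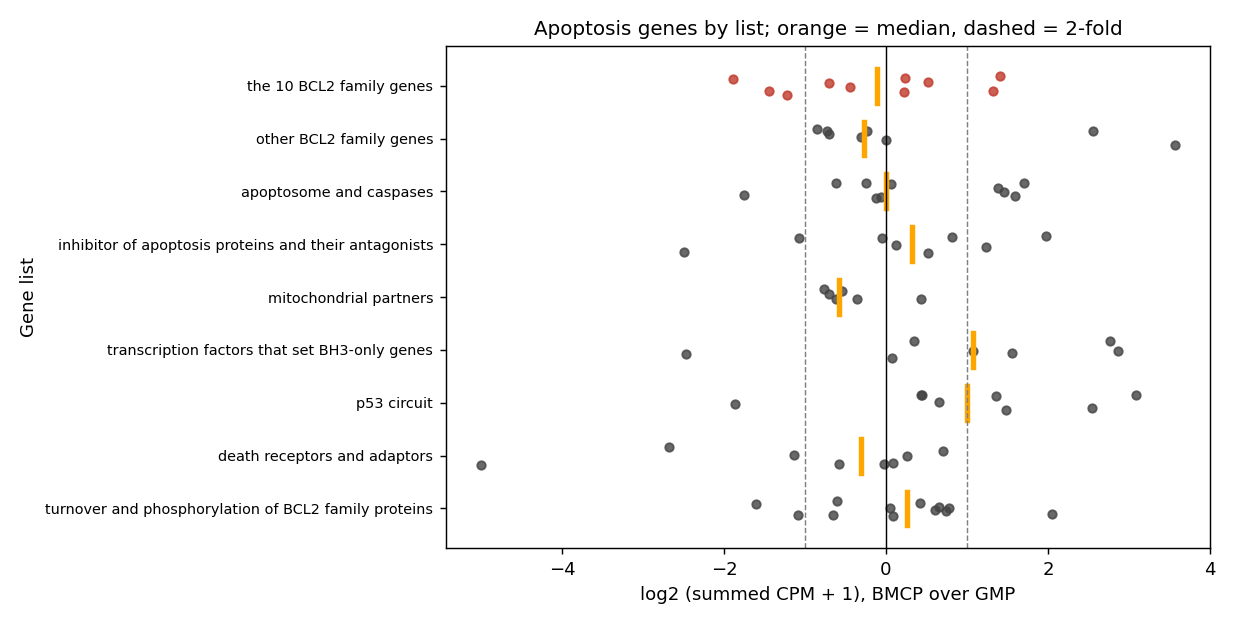
Each point is a gene with at least 1 CPM, placed by its log2 ratio of summed CPM plus 1, BMCP over GMP, in rows by list; orange bars are medians and dashed lines 2-fold. The 10 BCL2 family genes (red) have a median of -0.11, and all medians shift down with spike-in scaling, that of all genes to -0.79.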

How the data were processed

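Single-cell libraries of 94 BMCP and 47 GMP were analysed from the authors' deposited table of raw read counts per gene and cell. Reads were handled with GSNAP and HTSeq 0.5.3p3 on build mm10, per the submitters' processing notes; the annotation release and the strand setting are not given in the sources used here. Per the labels' protocols, libraries had 23 PCR cycles and single-end reads of 50 bases. Symbols and exons came from GENCODE vM21 (45143 of 46078 rows matched).

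Cells were kept with at least 50000 nuclear-encoded counts, 1000 genes, at most 10% mitochondrial counts and 50% spike-in reads; 11 of 141 were left out. No doublet caller was run on these sorted cells. Reads without a gene, ambiguous or unaligned (15.3%, 4.57% and 29.4%) stayed out of totals. CPM were computed on nuclear-encoded counts, with a pseudocount of 1 CPM for ratios and a floor of 3 counts. Detection used 200000 thinned reads, which left 86 BMCP and 40 GMP. Each population is 1 sample, so no test was run; the summing code was tested on simulated data. The members, lists and alternatives were chosen with earlier results of these data known. Pathway genes were named at 2-fold or more where the higher population reached 20 CPM, and the 3 most alike genes by Spearman correlation. A gene that this rule names is not reported here. Alternatives were spike-in and TMM scaling (edgeR 4.0.16), mean of cells, pseudocounts of 0.1 and 5, filters, blocks of BMCP and leaving out cells. The software was R 4.3.3 and Python 3.11.15 with pandas 2.3.3, numpy 2.4.6, matplotlib 3.10.9 and scipy 1.17.1.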

Additional observations from a re-analysis of the deposited data

How the results depend on the processing

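The counts of family genes at least 2-fold higher and lower in BMCP (2 and 3) became 0 and 5 with spike-in scaling and 1 and 5 with BMCP 1 to 47 alone; a pseudocount of 5 CPM left 1 lower, and leaving out the *Gata2* GMP, chosen after seeing the data, left 1 higher. The cause was not tested. For the other apoptosis genes (17 and 10) spike-in scaling gave 8 and 25. For all genes (3752 and 3061) it gave 2394 and 6519, and a pseudocount of 5 CPM gave 2494 and 1985. Among the ratios of the 10 members, the 1 that left its side of 2-fold for the other was *Bcl2l1* in BMCP 1 to 47 (-1.66). The other settings kept these counts within 1.5 times; TMM factors were 0.983 and 1.02. Leaving out BMCP replicate 12, also chosen after seeing the data, moved no count of calls by more than that. No paired analysis was possible because the replicate numbers shared by BMCP and GMP only name cells and no test was run. Depth limits the rare genes: *Pmaip1*, *Bcl2l1*, *Bcl2l11* and *Bbc3* rest on few cells, and a gene without reads may still be transcribed.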

Other observations

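Splitting GMP by the proliferation gene *Mki67* (10 thinned reads or more in 17 cells, fewer in 23) gave other levels for several members. *Bcl2* was 149.9 CPM in the *Mki67* cells and 99.7 CPM in the others, found in 11 of 17 and 18 of 23. *Mcl1* was 57.1 and 104 CPM, found in 10 and 13 cells. *Bcl2l11* was 17.9 and 3.29 CPM, but the first was 4.74 CPM without replicate 36. *Bbc3* was 4.65 and 20.6 CPM; replicate 9 held all of its reads in the *Mki67* cells. *Bax* differed little, at 81.8 and 83.8 CPM. These subsets come from the same libraries, and no difference was tested.

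Among BMCP, the 20 cells with *Mcpt8* at 10 or more thinned reads had no read of *Bcl2l1*. It was found in 10 of the other 66, whose sum was 44.1 CPM and some of which held fewer *Mcpt8* reads. By the rule of 3 counts, 0 of 20 cells allows a share of cells with a read of up to 15%, which covers counting error only and does not limit expression. The *Mcpt8* cells had 37.4 CPM of *Bbc3*, or 17.4 without replicate 52, and 124 CPM of *Bax*, beside 10.4 and 89.2 CPM in the others. *Bcl2* was 48.5 CPM (22.5 without replicate 16) and 41.1 CPM, found in 3 of 20 and 9 of 66.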
